A study of Mus musculus with 56 samples.

Results

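The comparison described here is of visceral adipose tissue (VAT) taken at lights-on from mice on daytime-restricted feeding (DRF) and from mice on nighttime-restricted feeding (NRF). It took all libraries labelled ZT0 or ZT24, where Zeitgeber time (ZT) counts hours from lights-on, so that both labels stand for the same clock time 1 day apart. This gave 16 of the 56 libraries of the series, 4 for each regimen at each label, and thus 8 DRF against 8 NRF libraries. All mice were C57BL/6J females of 9 weeks, group housed under 12 h of light and 12 h of darkness, and had been on their regimen for 7 days. Each library was made from the tissue of 1 mouse, so p-values measure the spread between mice of 1 strain and 1 sex, and the labels name no cages. No group fed ad libitum was analysed here, so each difference is between the regimens and has no unrestricted reference. At lights-on the feeding window of DRF mice opens and that of NRF mice closes.

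White adipocytes take up sugar and lipoprotein fat after a meal, build and store triglyceride, and release fatty acids and glycerol between meals. Insulin drives storage and restrains lipolysis, whereas low insulin relieves the inhibition of FOXO transcription factors. Their circadian clock is a transcriptional loop in which BMAL1 (encoded by Arntl) and CLOCK bind E-boxes of Per, Cry, Nr1d and PAR-bZIP genes, and the REV-ERB proteins encoded by Nr1d1 and Nr1d2 repress Arntl in turn through ROR elements.

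Levels are given in CPM (counts-per-million of the library size), recovered from the deposited table, compared within a gene only, and differences as log2(CPM + 1) of DRF minus NRF with their standard error. The 16 libraries held between 31144102 and 40709010 recovered reads. Adiponectin (Adipoq), the adipocyte hormone, lay between 1544 and 3376 CPM in all 16, and its regimen difference was 0.00 ± 0.16 (adjusted p = 0.99). Of 8 adipocyte markers, 3 were higher and 1 lower in DRF, with a median of 0.37, and 4 and 1 without DRF ZT0 replicate 4. Several libraries carried markers of other tissues. In DRF ZT0 replicate 4 the summed uterine epithelium markers reached 9287 CPM, against 36.8 to 155 CPM in the other 15, and in NRF ZT24 replicate 4 the liver gene Alb reached 1385 CPM, against at most 70 CPM in the others. The lights-on counts of all genes and of the pathway lists are therefore given with and without both. Skeletal muscle markers summed to 379 CPM in NRF ZT24 replicate 4 and to 333 CPM in DRF ZT24 replicate 1, against 10.3 to 123 CPM in the other 14. DRF ZT24 replicate 1 stays in the fits without both, and without that library alone 1559 genes were higher and 1548 lower. In addition, NRF ZT0 replicate 1 lay with the DRF mice for several metabolic genes, and values without it are given for several of them.

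Of 16115 genes tested, 1791 (11.1%) were higher and 1864 (11.6%) lower in DRF at an adjusted p under 0.05 by limma. Most of these differences were small, with a median size of 0.40 on the log2 scale, and 115 of the higher and 64 of the lower genes differed by at least 1. The 8 DRF and 8 NRF libraries did not overlap at all for 320 genes higher in DRF (1.99% of those tested) and for 262 lower in DRF (1.63%). Counts of list members below are to be read beside these shares of all genes. Without both DRF ZT0 replicate 4 and NRF ZT24 replicate 4, 2180 genes were higher and 2324 lower. Scaling to total reads moved the split to 1494 higher and 2367 lower, so the balance of the directions depends on the scaling.

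**Figure D1:**
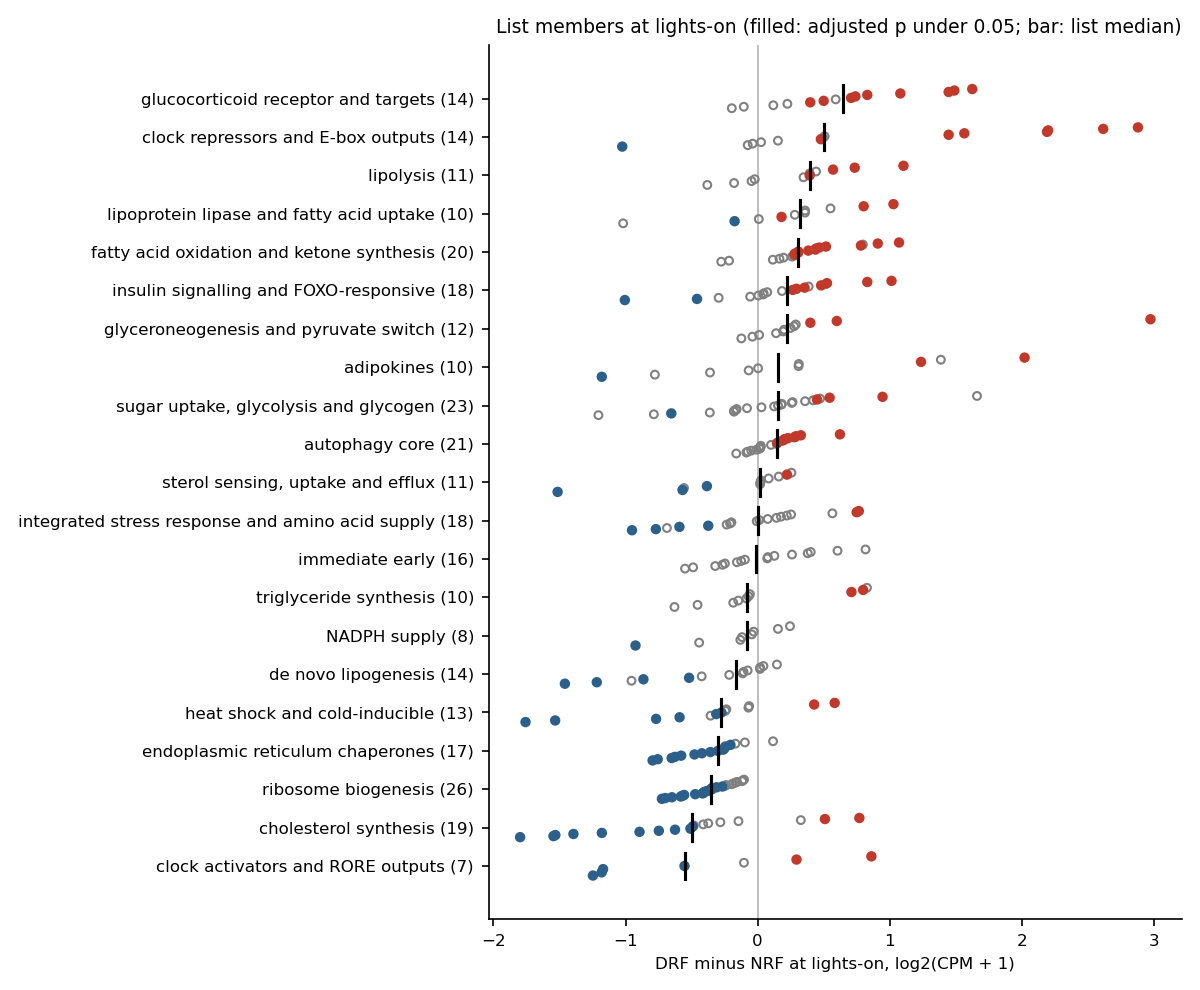
DRF minus NRF differences at lights-on on the log2(CPM + 1) scale for the tested members of each of 21 gene lists, 1 point per gene, filled where the adjusted p is under 0.05 (red higher, blue lower in DRF), with a bar at the list's median and the number tested in brackets. The medians run from -0.55 for clock activators to 0.65 for glucocorticoid targets, and all 26 ribosome biogenesis genes lie below 0.

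The regimen difference was also taken at each label within the same fit of 16 libraries, so that both labels share the estimate of the spread. It was called for 1474 genes at ZT0 and for 1759 at ZT24 (1809 and 1917 without both libraries), and 666 genes were called at both, which is 45.2% of the ZT0 list and 37.9% of the ZT24 list. Of these 666, 663 had the same sign. With 4 mice a group, these counts depended on single mice. The ZT0 count was 877, 883, 591, 892 and 782 without DRF ZT0 replicate 1, DRF ZT0 replicate 2, NRF ZT0 replicate 2, NRF ZT0 replicate 3 and NRF ZT0 replicate 4. The ZT24 count rose to 2754 without DRF ZT0 replicate 4, which enters through the shared spread. It fell to 1156, 772, 892 and 1011 without DRF ZT24 replicates 1, 2, 3 and 4, and to 920, 845 and 796 without NRF ZT24 replicates 2, 3 and 4. No gene passed for a change of the regimen difference between ZT0 and ZT24 in the limma fit, where 1530 genes had an unadjusted p under 0.05 and the smallest adjusted p was 0.116, and none passed by voom. With all 56 libraries in the fit 8 passed, and 1 passed without NRF ZT0 replicate 3 and 1 without NRF ZT24 replicate 4. The 5 genes nearest to the threshold were Snrpf, Tmed9, H2afj, Foxn3 and Ahctf1, and for H2afj, a histone H2A gene, the difference was -0.55 at ZT0 and 0.52 at ZT24. Of the exon bases of Snrpf 65.9% are shared with Ccdc38 on the opposite strand. A miss of the threshold does not show that the days were alike.

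Clock genes were among the largest differences, with 4 of the 10 largest rises. Of 14 repressors and E-box outputs of the clock, 7 were higher and 1 lower in DRF, with a median difference of 0.50 against -0.01 over all genes tested, and these counts were the same without both libraries. The promoter stretches below carry the E-box (CACGTG, its own reverse complement) or D-box (TTATGTAA, searched on both strands) in capitals, with 30 bases on each side of the outer matches. They are read from RefSeq promoters on GRCm38, 250 bases before to 50 after the annotated start, 5′ to 3′ on the gene's strand, and show the letters that the named clock factors are known to bind. They are shown for members that moved in opposite directions, Per1, Tef and Ciart upward and Cry1 downward, and for Per3.
Per1 (chr11:69098753-69098818, plus strand): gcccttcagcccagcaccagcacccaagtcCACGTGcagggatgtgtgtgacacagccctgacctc
Tef (chr15:81802516-81802581, plus strand): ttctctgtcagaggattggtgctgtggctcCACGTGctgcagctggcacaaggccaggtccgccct
Ciart (chr3:95882237-95882374, minus strand): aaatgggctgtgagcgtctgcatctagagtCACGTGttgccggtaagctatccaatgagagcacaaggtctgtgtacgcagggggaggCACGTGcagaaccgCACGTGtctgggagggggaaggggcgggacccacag
Cry1 (chr10:85185079-85185144, minus strand): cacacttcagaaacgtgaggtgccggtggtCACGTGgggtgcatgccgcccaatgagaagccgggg
Per3 (chr4:151044786-151044900, minus strand): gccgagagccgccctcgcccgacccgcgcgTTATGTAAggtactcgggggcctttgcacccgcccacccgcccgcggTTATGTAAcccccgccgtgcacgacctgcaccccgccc

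The E-box is present in 6 of 14 promoters of this list (42.9%), belonging to 5 genes, and in 7.15% of all 32851 promoters of that length. RefSeq promoters were matched for 12 of the 14 genes. The D-box is in 0.938% of all promoters, and Per3 holds it at 205 and 158 bases before its start. No other motif searched overlaps the capitals. A match is a description of letters, and of the 5 genes with an E-box 3 were higher and 1 lower in DRF, while of the other 7 searched 4 were higher and none lower.

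Dbp (chr7:45705088-45710203, plus strand), which encodes a D-box activator, ranged from 19.3 to 63.4 CPM with a median of 42.0 in DRF, and from 3.03 to 7.46 CPM with a median of 5.17 in NRF. The groups did not overlap and the difference was 2.88 ± 0.22 (adjusted p = 2.19e-06), a 7.37-fold change on the log2(CPM + 1) scale. Of the exon bases of Dbp, 18% are shared with Sphk2 on the opposite strand, and strand was not stated for the counting. Nr1d2 lay between 31.3 and 55.0 CPM (median 46.1) in DRF and between 3.97 and 12.3 CPM (median 5.55) in NRF. Every DRF mouse thus exceeded every NRF mouse in this REV-ERB gene, by 2.62 ± 0.18 (adjusted p = 9.33e-07). Its paralog Nr1d1 lay between 43.7 and 62.5 CPM (median 54.2) against 6.6 to 27.4 CPM (median 10.3). The libraries did not overlap and the difference was 2.19 ± 0.20 (adjusted p = 1.26e-05), with 8.55% of exon bases shared with Thra on the opposite strand.

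Among the period genes, Per3 stood at 41.9 to 80.0 CPM (median 50.7) in DRF and at 7.28 to 20.6 CPM (median 9.68) in NRF, with no overlap and a difference of 2.20 ± 0.18 (adjusted p = 3.35e-06). Per1, which also answers to glucocorticoids, stood at 33.4 to 108 CPM (median 59.7) against 13.6 to 34.4 CPM (median 19.7). The lowest DRF mouse fell just below the highest NRF mouse, and the difference was 1.45 ± 0.17 (adjusted p = 7.25e-05). Per2 was 12.2 to 35.2 CPM in DRF and 3.44 to 27.6 CPM in NRF and did not pass (0.51 ± 0.28, adjusted p = 0.22). Tef, a PAR-bZIP activator like Dbp, was 124 to 198 CPM (median 154) against 29.1 to 97.2 CPM (median 49.0), again with no overlap (1.57 ± 0.20, adjusted p = 1.16e-04). Ciart, a repressor of CLOCK and BMAL1, was at low levels of 0.515 to 3.69 CPM against 0.268 to 0.939 CPM. Its difference of 0.48 ± 0.15 (adjusted p = 0.033) lost the call in 6 of the 16 fits that left out 1 library.

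Cry1 went the other way, although it too holds an E-box. It lay between 11.2 and 19.9 CPM (median 13.2) in DRF and between 22.3 and 33.9 CPM (median 29.7) in NRF, with no overlap and a difference of -1.02 ± 0.12 (adjusted p = 5.71e-05). On the activator side 4 of 7 genes were lower and 2 higher in DRF, with or without both libraries, with a median of -0.55. Arntl was 14.2 to 22.5 CPM (median 16.8) in DRF against 32.5 to 42.4 CPM (median 40.3) in NRF, without overlap (-1.17 ± 0.09, adjusted p = 2.08e-06). Its partner Clock was 58.5 to 81.2 CPM (median 65.5) against 88.3 to 112 CPM (median 101). These groups did not overlap either, and Clock differed by -0.55 ± 0.06 (adjusted p = 5.59e-05). Npas2, a paralog of Clock, differed by -1.18 ± 0.21 (adjusted p = 0.0013), and DRF ZT0 replicate 4 at 15.1 CPM lay within the NRF range. Nfil3, a D-box repressor, was 10.8 to 24.6 CPM (median 14) against 25.8 to 51.9 CPM (median 40.5) and did not overlap (-1.25 ± 0.17, adjusted p = 2.07e-04). Against this direction, Rora, which encodes an activator of Arntl, was 46.7 to 70.9 CPM (median 61.1) in DRF and 29.5 to 41.5 CPM (median 31.1) in NRF, higher in every DRF mouse (0.86 ± 0.09, adjusted p = 3.12e-05). Nampt, the NAD salvage enzyme, was higher by 0.30 ± 0.09 (adjusted p = 0.025) and lost the call without NRF ZT24 replicate 4 (adjusted p = 0.052).

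**Figure D2:**
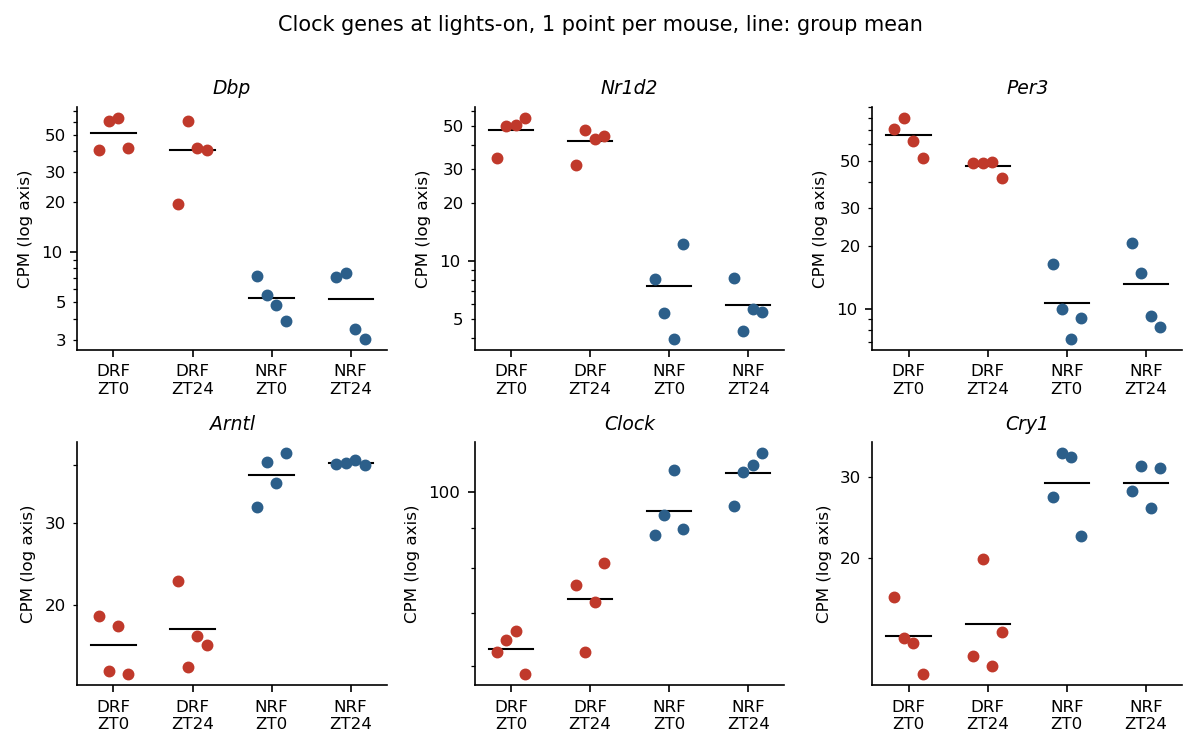
CPM on a log axis of clock genes in each of the 16 libraries, by regimen and ZT label, 1 point per mouse with the mean of each group as a line. The 8 DRF mice lie above all 8 NRF mice for Dbp, Nr1d2 and Per3, and below them for Cry1, Arntl and Clock.

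Glucocorticoid targets were higher in DRF. Of 14 genes for the receptor and its targets, 9 were higher and none lower, with a median of 0.65, and 9 were higher without both libraries as well. Hsd11b1 (chr1:193221634-193264075, minus strand), whose enzyme regenerates active glucocorticoid inside cells, was 77.9 to 205 CPM (median 135) in DRF and 31.6 to 65.7 CPM (median 40.7) in NRF. All 8 DRF mice were above all 8 NRF mice (1.63 ± 0.19, adjusted p = 5.87e-05). Fkbp5, a co-chaperone that restrains the receptor, was 23.8 to 57.5 CPM (median 41.3) against 12.6 to 20.1 CPM (median 18.9), with no overlap (1.08 ± 0.19, adjusted p = 0.0012). Sgk1, a serum- and glucocorticoid-induced kinase, was 34.6 to 65.3 CPM (median 50.5) against 24.6 to 34.5 CPM (median 29.3). The margin between the groups was narrow but none overlapped (0.71 ± 0.08, adjusted p = 7.72e-05). Zbtb16 was higher by 1.49 ± 0.29 (adjusted p = 0.002), Tsc22d3, which encodes GILZ, by 0.74 ± 0.17 (adjusted p = 0.0068), and Klf9 by 0.50 ± 0.10 (adjusted p = 0.002), each with overlapping groups. Per1 is counted in both this list and the clock list.

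Genes of glyceroneogenesis, lipolysis, fatty acid uptake and fatty acid oxidation were higher in DRF where they passed, with Slc27a4 as the 1 exception. Pck1 (chr2:173153048-173159273, plus strand, gene coordinates from GENCODE vM21 on GRCm38), whose enzyme PEPCK supplies glycerol 3-phosphate from pyruvate in fasted adipocytes, was 1274 to 2959 CPM (median 1761) in DRF. In NRF it spread from 58.0 to 1452 CPM with a median of 210.3. NRF ZT0 replicate 1 was the library at 1452 CPM, inside the DRF range. The difference was 2.98 ± 0.52 (adjusted p = 0.0011), 2.12 at ZT0 and 3.83 at ZT24, and 3.31 without that library. Of 12 genes of glyceroneogenesis and the pyruvate switch, 3 were higher and none lower, with or without both libraries. Among all genes tested 11.1% were higher. Pdk2, a kinase that inhibits pyruvate dehydrogenase, was higher by 0.60 ± 0.11 (adjusted p = 0.0012). Aqp7, the glycerol channel, was 0.40 ± 0.14 higher (adjusted p = 0.050) and lost the call in 13 of 16 fits that left out 1 library.

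Of 11 lipolysis genes 4 were higher and none lower (5 higher without both libraries, 1 lower without DRF ZT0 replicate 2 or without NRF ZT24 replicate 1). Among all genes tested 11.1% were higher and 11.6% lower. By label, 1 lipolysis gene was called at ZT0 and 6 at ZT24. Lipe, which encodes hormone-sensitive lipase, was 905 to 1834 CPM (median 1611) in DRF and 780.4 to 1127 CPM (median 888) in NRF. Its groups overlapped because of DRF ZT0 replicate 4 at 905 CPM, and the difference of 0.74 ± 0.12 (adjusted p = 7.93e-04) was 0.84 without both libraries. Of its exon bases 15.6% are shared with a gene on the other strand. Pnpla2, which encodes the triglyceride lipase ATGL, was higher by 0.57 ± 0.13 (adjusted p = 0.0057). Mgll, for the last step of the same cascade, was higher by 0.39 ± 0.11 (adjusted p = 0.017), a call lost on the deposited values (adjusted p = 0.18). Pde3b, through which insulin lowers cyclic AMP and so restrains the lipases, was higher too, at 315 to 544 CPM (median 499.8) against 149 to 325 CPM (median 219). Its 1.11 ± 0.15 (adjusted p = 1.77e-04) was the largest difference called in the list.

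For lipoprotein lipase and fatty acid uptake 3 of 10 genes were higher and 1 lower, and 6 were higher without DRF ZT0 replicate 4. Without both libraries 6 were higher and none lower. Among all genes tested 11.1% were higher and 11.6% lower, so the 1 lower is near the share of all genes. Slc27a1, a fatty acid transporter, was 987 to 1811 CPM (median 1493) in DRF against 498 to 854 CPM (median 700.0) in NRF. The groups stood clear of each other (1.03 ± 0.14, adjusted p = 1.92e-04). Vldlr, a receptor for triglyceride-rich lipoproteins, was 81.1 to 130.2 CPM (median 104) against 43.8 to 68.8 CPM (median 61.8), also without overlap (0.80 ± 0.11, adjusted p = 2.32e-04). Lpl itself did not pass (0.55 ± 0.22, adjusted p = 0.088) but did without both libraries (0.70, adjusted p = 0.014). Slc27a4 was lower by 0.17 ± 0.06 (log2 -0.17, adjusted p = 0.045) and lost the call in 12 of 16 fits that left out 1 library.

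Fatty acid oxidation had 12 of 20 genes higher and none lower, with a median of 0.31, 16 higher without both libraries and 6 higher on the deposited values. By label, 2 were called at ZT0 and 8 at ZT24. Acot2, a mitochondrial acyl-CoA thioesterase, was 28.8 to 45.4 CPM (median 39.8) in DRF and 17.2 to 27.6 CPM (median 22.4) in NRF, with no overlap (0.78 ± 0.08, adjusted p = 2.62e-05). Ppara, the nuclear receptor for this programme, was at low levels of 5.87 to 9.82 CPM (median 8.53) against 2.31 to 6.05 CPM (median 3.68). Of the DRF mice, replicate 4 at ZT0 alone, at 5.87 CPM, fell within the NRF range, and the difference was 0.91 ± 0.15 (adjusted p = 8.12e-04). Acadm, the medium-chain dehydrogenase, was higher by 0.52 ± 0.10 (adjusted p = 0.0027). Cpt1a, for entry of fatty acids into mitochondria, was higher by 0.44 ± 0.13 (adjusted p = 0.022) and lost the call without NRF ZT24 replicate 3 and with total reads (adjusted p = 0.064).

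Of 10 genes of triglyceride synthesis 2 were higher (3 without both libraries), beside 11.1% of all genes tested, while 7 of the 10 had a negative difference and the median was -0.08. Gpat4, for the first acylation of glycerol 3-phosphate, was 118 to 195 CPM (median 172) in DRF and 87.9 to 114 CPM (median 100.2) in NRF, without overlap (0.71 ± 0.09, adjusted p = 1.41e-04). Dgat1, for the last acylation, was higher by 0.80 ± 0.11 (adjusted p = 1.86e-04). No member of the 10 was lower, but Agpat2 stood at -0.63 ± 0.24 (adjusted p = 0.071) and Gpam at -0.45 ± 0.18 (adjusted p = 0.079). Without NRF ZT0 replicate 1, 2 of the 10 were lower, and with total reads 3 were.

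In de novo lipogenesis 4 of 14 genes were lower and none higher in DRF, with or without both libraries, and 6 were lower without NRF ZT0 replicate 1. Fasn, the fatty acid synthase, was 14272 to 32426 CPM (median 24857) in DRF and 7358 to 34677 CPM (median 25554) in NRF, and differed by 0.04 ± 0.40 (adjusted p = 0.95). Acaca, which makes its substrate malonyl-CoA, differed by 0.02 ± 0.27 (adjusted p = 0.97). The broad NRF range was set at its lower end by NRF ZT0 replicate 1, which held the 7358 CPM. Acly, which makes cytosolic acetyl-CoA, was 2008 to 5751 CPM against 809 to 14837 CPM and missed the threshold (-0.95 ± 0.48, adjusted p = 0.17), but passed without that library (-1.41, adjusted p = 0.0027). The 4 lower genes were Elovl5, Mlxipl, Scd2 and Pnpla3. Elovl5, an elongase of polyunsaturated fatty acids, was 105 to 182 CPM (median 130.1) in DRF and 183 to 319 CPM (median 245) in NRF. It was the member whose groups did not overlap (-0.86 ± 0.11, adjusted p = 1.70e-04). Scd2, a desaturase, was 358 to 721 CPM (median 510.4) against 338 to 2814 CPM (median 1466), where the lowest NRF value was again replicate 1 at ZT0 (-1.46 ± 0.34, adjusted p = 0.0065, and -1.76 without that library). Mlxipl, which encodes the sugar-responsive factor ChREBP, was lower by 1.22 on the log2 scale (-1.22 ± 0.27, adjusted p = 0.0052), and by 1.44 without it (-1.44). Of 8 genes of NADPH supply, Rpia of the pentose phosphate pathway was lower (-0.93 ± 0.20, adjusted p = 0.0043), and 2 were lower without NRF ZT0 replicate 1. Without both libraries 1 was lower as well, and 1 of 8 is near the 11.6% lower among all genes tested.

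In cholesterol synthesis 10 of 19 genes were lower in DRF and 2 higher, with a median of -0.50 (9 lower and 3 higher without both libraries, 13 lower and 1 higher without NRF ZT0 replicate 1). Mvd, the mevalonate pyrophosphate decarboxylase, was 19.2 to 31.6 CPM (median 23.1) in DRF and 19.9 to 153 CPM (median 106) in NRF. Replicate 1 at ZT0 was the NRF mouse at 19.9 CPM, within the DRF range. Mvd differed by -1.80 ± 0.32 (adjusted p = 0.0013), and by -2.12 without that mouse. Sqle, the squalene epoxidase, was 16 to 25.3 CPM (median 21.7) against 17.4 to 111 CPM (median 68.6), overlapping at the low end (-1.55 ± 0.29, adjusted p = 0.0016, and -1.81 without that mouse). Hsd17b7, Sc5d and Dhcr7, which act late in the pathway, differed by -1.53 ± 0.28, -1.39 ± 0.24 and -1.18 ± 0.21, with adjusted p of 0.0014, 0.0011 and 0.0013. Against them, 2 genes were higher, near the 11.1% of all genes tested, a count that was 1 in 7 of 16 fits without 1 library. Tm7sf2, a sterol reductase, was higher by 0.51 ± 0.13 (adjusted p = 0.013), with 12.1% of its exon bases shared with Vps51 on the same strand, and missed the threshold on the deposited values (adjusted p = 0.051). Srebf2, which encodes the sterol-responsive factor of this pathway, was 47.8 to 62.5 CPM (median 51.6) against 56.4 to 81.0 CPM (median 73.8) and was lower in DRF (-0.38 ± 0.08, adjusted p = 0.0050). Insig2, which holds that factor back, was higher by 0.22 ± 0.07 (adjusted p = 0.026), a call lost in 5 of 16 fits that left out 1 library. The sterol element as searched (TCACNCCAC, both strands) is in 1 of 17 promoters of the list (14 of 19 genes matched), that of Hmgcs1, and in 1.24% of all promoters.

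**Figure D3:**
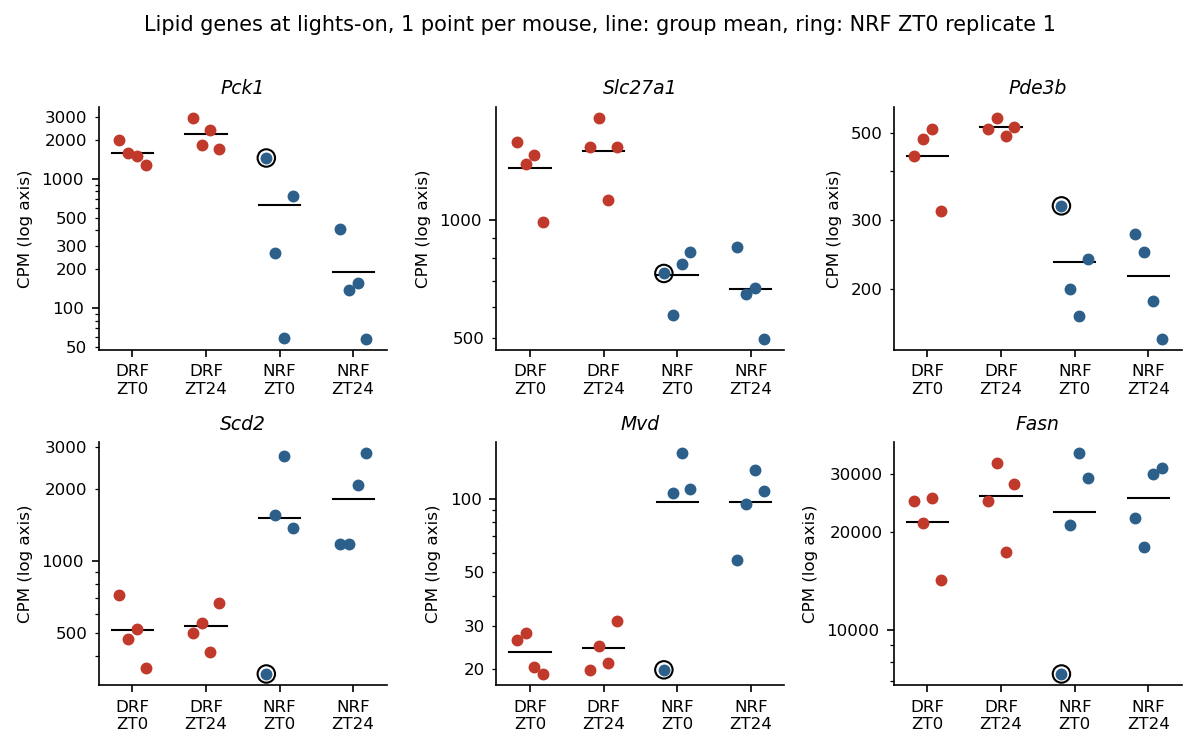
CPM on a log axis of genes of fat and sterol metabolism in each of the 16 libraries, 1 point per mouse with the mean of each group as a line. NRF ZT0 replicate 1, ringed, lies with the DRF mice for Pck1 (1452 CPM), Mvd (19.9 CPM) and Scd2 (338 CPM), away from the other NRF mice.

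Genes known to respond to low insulin were higher in part. Of 18 genes of insulin signalling and FOXO response, 7 were higher and 2 lower, or 6 and 1 without both libraries, and 4 were higher with total reads and 3 on the deposited values. Among all genes tested 11.1% were higher and 11.6% lower, so the 2 lower are near the share of all genes. Irs2, an insulin receptor substrate that FOXO factors induce, was 48.0 to 79.0 CPM (median 64.5) in DRF and 14.2 to 67.6 CPM (median 29.8) in NRF. Despite the overlap it differed by 1.01 ± 0.23 (adjusted p = 0.0057), whereas Irs1 differed by -0.29 ± 0.14 (adjusted p = 0.15). Klf15 was higher by 0.53 ± 0.13 (adjusted p = 0.0078) and Ddit4, an inhibitor of mTORC1, by 0.83 ± 0.22 (adjusted p = 0.013). Bcl6, a transcriptional repressor, was lower (-1.01 ± 0.24, adjusted p = 0.0072). Pik3r1, the regulatory subunit of PI3-kinase, was lower too (-0.46 ± 0.15, adjusted p = 0.035), a call lost in 8 of 16 fits without 1 library and without both libraries (adjusted p = 0.065).

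In sugar uptake, glycolysis and glycogen 3 of 23 genes were higher and 1 lower, shares near or below the 11.1% and 11.6% of all genes tested, so that the counts say nothing particular of the list. These counts moved with single mice, to 5 higher without DRF ZT0 replicate 4 (6 without both libraries, with 1 lower), to 4 lower without NRF ZT0 replicate 1 and to 3 lower without NRF ZT24 replicate 1. Pfkfb3, whose enzyme makes the activator of phosphofructokinase, was 469 to 1010.0 CPM (median 683) in DRF and 265 to 474 CPM (median 356) in NRF. The ranges met only at their ends (0.95 ± 0.15, adjusted p = 6.68e-04). Tpi1 was higher by 0.45 ± 0.10 (adjusted p = 0.0064) and Pygb, a glycogen phosphorylase, by 0.55 ± 0.15 (adjusted p = 0.016), and both lost the call on the deposited values (adjusted p = 0.073 and 0.085). Ppp1r3d, which targets a phosphatase to glycogen, was lower (-0.65 ± 0.14, adjusted p = 0.0045).

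Genes of protein folding in the endoplasmic reticulum (ER) were lower in DRF. Of 17 chaperones, 12 were lower and none higher, with a median of -0.30, 7 of them did not overlap between the groups, and 15 were lower without both libraries. Among all genes tested 11.6% were lower, and 1.63% were lower without overlap. Taken by label, 12 chaperones were called at ZT0 and 5 at ZT24. The promoter stretches below carry the ER stress element in capitals, the letters CCAAT and CCACG set 9 bases apart (searched on both strands, so that it also reads CGTGG followed by ATTGG), which ATF6 and XBP1 with NF-Y are known to bind. They are shown because this element is in 7 of 15 promoters of the list (46.7%) but in 39 of all 32851 promoters (0.119%).
Hspa5 (chr2:34771995-34772073, plus strand): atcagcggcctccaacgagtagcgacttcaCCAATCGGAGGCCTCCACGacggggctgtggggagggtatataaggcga
Calr (chr8:84847045-84847123, minus strand): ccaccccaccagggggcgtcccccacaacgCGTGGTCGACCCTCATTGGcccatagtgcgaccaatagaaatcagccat
Creld2 (chr15:88819490-88819568, plus strand): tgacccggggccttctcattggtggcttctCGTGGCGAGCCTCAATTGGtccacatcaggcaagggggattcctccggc
Dnajc3 (chr14:118937797-118937875, plus strand): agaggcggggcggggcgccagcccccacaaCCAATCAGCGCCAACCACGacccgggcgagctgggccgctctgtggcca
Canx (chr11:50325770-50325848, minus strand): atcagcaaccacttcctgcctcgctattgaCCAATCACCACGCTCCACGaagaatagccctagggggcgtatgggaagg
Hsp90b1 (chr10:86705503-86705686, minus strand): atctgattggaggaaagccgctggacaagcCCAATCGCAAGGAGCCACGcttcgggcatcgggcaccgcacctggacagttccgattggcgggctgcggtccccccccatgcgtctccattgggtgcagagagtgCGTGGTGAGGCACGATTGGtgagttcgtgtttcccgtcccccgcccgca
Pdia6 (chr12:17266461-17266539, plus strand): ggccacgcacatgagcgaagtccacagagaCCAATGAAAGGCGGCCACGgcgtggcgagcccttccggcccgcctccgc

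Promoters were matched for 15 of the 17 genes. All 7 genes with the element were lower in DRF, as were 3 of the other 8 searched and the 2 not searched. Hspa5, the ER chaperone BiP, was 238 to 346 CPM (median 277) in DRF and 426 to 577 CPM (median 490.1) in NRF. No mouse crossed between the groups, and the difference of -0.79 ± 0.08 (adjusted p = 3.28e-05) was -0.79 at ZT0 and -0.80 at ZT24. Creld2, an ER stress-induced protein, was 11.7 to 17.1 CPM (median 14) against 18.5 to 26.8 CPM (median 22.5), with no overlap (-0.63 ± 0.08, adjusted p = 1.70e-04). Calreticulin (Calr), a lectin chaperone, was 273 to 432 CPM (median 327) against 452 to 576 CPM (median 474), again with no overlap (-0.58 ± 0.10, adjusted p = 8.39e-04). Its membrane-bound relative Canx differed by -0.30 ± 0.06 (adjusted p = 0.0015), also without overlap. Dnajc3, a BiP cochaperone, was 94.7 to 125 CPM against 135 to 167 CPM and did not overlap (-0.36 ± 0.07, adjusted p = 0.0019). Hsp90b1, the ER member of the HSP90 family, differed little, without overlap, at -0.26 ± 0.07 (adjusted p = 0.016), -0.41 at ZT0 and -0.11 at ZT24. Pdia6, a disulfide isomerase, differed by -0.25 ± 0.07 (adjusted p = 0.025) and lost the call without DRF ZT0 replicate 1 and without DRF ZT0 replicate 2. The other member without overlap was Dnajb11, a BiP cochaperone, at -0.21 ± 0.05 (adjusted p = 0.0062). Of the remaining members, Sdf2l1 differed by -0.76 ± 0.11 (adjusted p = 2.58e-04) and Manf by -0.65 ± 0.11 (adjusted p = 6.78e-04).

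Of 13 heat shock and cold-inducible genes, most of which act in the cytosol, 6 were lower and 2 higher, with a median of -0.27 (7 and 2 without both libraries). Among all genes tested 11.6% were lower and 11.1% higher, so the 2 higher are near the share of all genes. The heat shock element as searched (GAANNTTC, its own reverse complement) is in 8 of 15 promoters of this list (53.3%) and in 7.86% of all promoters, and is shown for Dnaja1 and Hspb1, a strong and a weak member.
Dnaja1 (chr4:40722314-40722381, plus strand): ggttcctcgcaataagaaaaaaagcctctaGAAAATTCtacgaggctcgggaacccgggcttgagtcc
Hspb1 (chr5:135887772-135887859, plus strand): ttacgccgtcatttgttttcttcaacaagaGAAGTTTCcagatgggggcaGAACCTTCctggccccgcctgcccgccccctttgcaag

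Hspa8, the constitutive HSC70, was 403 to 648 CPM (median 524) in DRF and 1079.9 to 2251 CPM (median 1498) in NRF. The highest DRF mouse stood well below the lowest NRF mouse, and Hspa8 differed by -1.53 ± 0.16 (adjusted p = 3.28e-05). Hsph1, of the HSP110 family, was 17.2 to 36.5 CPM (median 25.3) against 49.4 to 169.6 CPM (median 86.8), with no overlap (-1.76 ± 0.25, adjusted p = 2.73e-04). Dnaja1, an HSP40 cochaperone, differed by -0.77 ± 0.17 (adjusted p = 0.0043) and Hsp90aa1 by -0.59 ± 0.16 (adjusted p = 0.014). Hspb1, a small heat shock protein, differed by -0.27 ± 0.09 (adjusted p = 0.035), with -0.56 at ZT0 and 0.01 at ZT24, a call lost in 11 of 16 fits without 1 library and without both libraries (adjusted p = 0.075). Promoters were matched for 9 of the 13 genes. Of the 7 with the element 3 were lower, of the other 2 searched 1 was higher, and of the 4 not searched 3 were lower and 1 higher. The pair that went the other way are the cold-inducible RNA-binding proteins, Cirbp at 0.58 ± 0.15 (adjusted p = 0.013) and Rbm3 at 0.43 ± 0.12 (adjusted p = 0.015, or 0.052 on the deposited values).

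**Figure D4:**
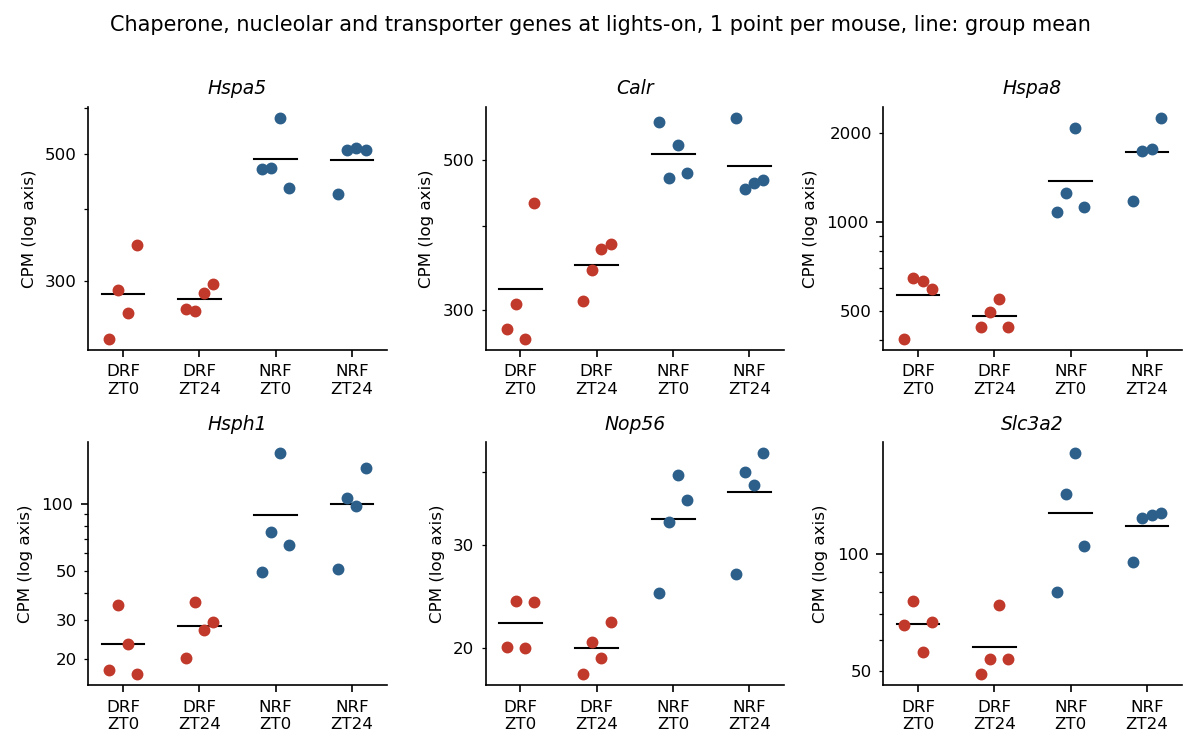
CPM on a log axis of chaperone, nucleolar and transporter genes in each of the 16 libraries, 1 point per mouse with the mean of each group as a line. The DRF mice lie below all NRF mice for Hspa5, Hspa8 and Hsph1, and likewise for Calr, Nop56 and Slc3a2.

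Ribosome biogenesis was lower as well. All 26 members had a negative difference and 17 were lower at the threshold (18 without both libraries), with a median of -0.35. Nop56, a box C/D snoRNP protein, was 18 to 24 CPM (median 20.3) in DRF and 24.8 to 43.1 CPM (median 36.9) in NRF, and was the member without overlap (-0.70 ± 0.11, adjusted p = 4.17e-04). Its partners Nop58 and Fbl, the methyltransferase fibrillarin, differed by -0.72 ± 0.13 (adjusted p = 0.0015) and -0.41 ± 0.07 (adjusted p = 0.0012). Nolc1, a nucleolar phosphoprotein, differed by -0.56 ± 0.10 (adjusted p = 0.0015).

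In the integrated stress response 4 of 18 genes were lower and 2 higher (5 and 4 without both libraries). The 2 higher are the 11.1% that were higher among all genes tested. Slc3a2, the heavy chain of amino acid transporters, was 49.1 to 75.7 CPM (median 60.8) in DRF and 79.8 to 181 CPM (median 125) in NRF, with no overlap (-0.95 ± 0.14, adjusted p = 3.93e-04). Psph, of serine synthesis, differed by -0.77 ± 0.19 (adjusted p = 0.010), with 10.4% of exon bases shared with Cct6a. Atf5 differed by -0.59 ± 0.16 (adjusted p = 0.015). Sesn2, which restrains mTORC1, was higher by 0.77 ± 0.17 (adjusted p = 0.0052). Chac1 was higher by 0.75 ± 0.24 (adjusted p = 0.035) but lost the call in 9 of 16 fits without 1 library and without both libraries (adjusted p = 0.062). The count of higher genes was 4 without DRF ZT0 replicate 4, and 1 in 9 of the other fits of this kind, those without DRF ZT0 replicate 2, DRF ZT24 replicates 2, 3 and 4, NRF ZT0 replicates 1, 2 and 4, and NRF ZT24 replicates 1 and 4.

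In autophagy 8 of 21 genes were higher and none lower, but 4 were higher with total reads and 2 on the deposited values. The count was 4 or 5 in 8 of the 16 fits without 1 library, those without DRF ZT0 replicates 1 and 2, DRF ZT24 replicates 2 and 4, NRF ZT0 replicates 2 and 3, and NRF ZT24 replicates 3 and 4. It was 5 without both libraries. Wipi1, which marks the forming autophagosome, was 81.5 to 112 CPM (median 87.9) in DRF and 49.9 to 64.0 CPM (median 61.5) in NRF, without overlap (0.62 ± 0.07, adjusted p = 5.71e-05), and held its call in all 16 of those fits. Ulk2, a kinase that starts the process, was higher by 0.33 ± 0.09 (adjusted p = 0.014), a call lost on the deposited values (adjusted p = 0.12).

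Of 10 adipokines tested, 2 were higher and 1 lower (3 and 1 without both libraries), beside 11.1% higher and 11.6% lower among all genes tested. Nrg4, a growth factor made by adipocytes, was 80.7 to 182 CPM (median 133) in DRF and 46.1 to 67.4 CPM (median 56.6) in NRF, with no overlap (1.24 ± 0.14, adjusted p = 5.19e-05). Cfd, adipsin, was the lower one, at 3023 to 7997 CPM (median 4529.6) against 7987 to 13140.0 CPM (median 11921), so that only the ends of the ranges met (-1.18 ± 0.24, adjusted p = 0.0033). Apln missed the threshold at -0.78 ± 0.28 (adjusted p = 0.057), and 2 were lower without DRF ZT0 replicate 2, NRF ZT0 replicate 1 or NRF ZT24 replicate 1. Leptin (Lep) differed by -0.36 ± 0.29 (adjusted p = 0.41).

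Several of the largest differences were outside these groups. Dtx4 (chr19:12466338-12501454, minus strand), an E3 ubiquitin ligase of the Deltex family, was 24.3 to 42.5 CPM (median 29.8) in DRF and 97.4 to 135 CPM (median 120.4) in NRF. It had the smallest standard error among the 10 largest falls, at -1.88 ± 0.10 (adjusted p = 1.21e-07). Osgin1, induced by oxidative stress, was 6.39 to 15.7 CPM (median 9.80) against 27.3 to 50.5 CPM, and the cell cycle factor E2f2 was 2.57 to 5.82 CPM (median 3.60) against 9.26 to 19.6 CPM (median 17.4). Neither overlapped, and they differed by -1.88 ± 0.16 (adjusted p = 4.04e-06) and -1.80 ± 0.16 (adjusted p = 9.48e-06). Cyp1a1, the classical target of the aryl hydrocarbon receptor, was 2.5 to 7.49 CPM against 10.1 to 52.5 CPM (-1.62 ± 0.26, adjusted p = 6.55e-04). Spon1, a matrix protein, was 25.7 to 74.4 CPM against 52.4 to 303 CPM (-1.89 ± 0.29, adjusted p = 4.32e-04). The serine protease inhibitors Serpina3k and Serpina3b differed by -2.30 ± 0.36 (adjusted p = 5.78e-04) and -1.76 ± 0.19 (adjusted p = 4.70e-05). They belong to a family of near-identical copies, so reads may be split among them, and the highest Serpina3k value of 98.6 CPM was in NRF ZT24 replicate 4, the library with raised Alb. Without both libraries Serpina3k differed by -1.96 (adjusted p = 1.11e-04).

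On the rising side, Crtac1, a secreted matrix protein, was 5.10 to 17.7 CPM (median 9.16) in DRF and 0.295 to 3.40 CPM (median 1.73) in NRF, with no overlap (2.05 ± 0.27, adjusted p = 1.52e-04). Fgf13, an intracellular member of the fibroblast growth factor family, was 38.6 to 105 CPM (median 66.2) against 10.7 to 31.2 CPM (median 18.1), again with no overlap (1.84 ± 0.23, adjusted p = 1.20e-04). The imprinted gene Peg3 was 55.8 to 156 CPM (median 101) against 14.6 to 76.0 CPM (median 24.2), and its groups overlapped (1.69 ± 0.34, adjusted p = 0.0030).

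None of 16 immediate early genes was called by limma on the average of both labels, with or without both libraries. Taken by label, 1 was called at ZT0 and 0 at ZT24. On the average, 3 had an unadjusted p under 0.05. These were Myc (-0.32 ± 0.13, adjusted p = 0.080), Egr2 (-0.55 ± 0.22, adjusted p = 0.081) and Klf4 (0.40 ± 0.16, adjusted p = 0.082). Up to 3 were higher (without DRF ZT0 replicate 1) and up to 2 lower (without NRF ZT0 replicate 3) when 1 library was left out.

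All 5 red cell genes were higher in DRF, with or without both libraries, and their sum was 273 to 742 CPM in DRF and 192 to 258 CPM in NRF. Alas2, the erythroid enzyme of haem synthesis, was 15.1 to 42.3 CPM (median 22.8) against 8.87 to 13.2 CPM (median 11.0), without overlap (1.03 ± 0.16, adjusted p = 6.38e-04). The alpha globin gene Hba-a1 differed by 1.06 ± 0.19 (adjusted p = 0.0013), with reads that its near-identical copy Hba-a2 may share. The progenitor marker Cd34 was 139 to 175 CPM (median 146) against 192 to 274 CPM (median 217) with no overlap (-0.55 ± 0.08, adjusted p = 3.07e-04), 1 of 6 progenitor markers called, or 3 without DRF ZT0 replicate 4 and 4 without both libraries. Mrc1 of macrophages differed by -0.52 ± 0.08 (adjusted p = 6.03e-04), 1 of 2 called among 7, a count that was 1 in 10 of 16 fits without 1 library. In bulk tissue, fewer cells of a type and less RNA per cell cannot be told apart, and the part of cell makeup in the other results was not tested. Other lists had 1 call each, lower for Lrrn4 among 6 mesothelium markers, all with a negative difference (median -0.33), lower for Lck among 8 lymphocyte markers tested, and higher for Cox7a1 among 7 brown adipocyte markers. Single calls in lists of this size are near the 11.1% higher and 11.6% lower of all genes tested. The call of Lrrn4 was lost in 11 of 16 fits without 1 library, while 4 mesothelium markers were lower without both libraries. Of the brown adipocyte markers, Dio2 was lower without DRF ZT0 replicate 4 (-1.16, adjusted p = 0.0043) and without both libraries (-1.21, adjusted p = 0.0054). None of 5 endothelial, 7 skeletal muscle or 11 uterine epithelium markers was called, but the keratin genes Krt7, Krt8, Krt18 and Krt19 of the last list, which mesothelium also expresses, were lower without DRF ZT0 replicate 4. Of its other members only Epcam and Muc1 were still tested then, and neither was called. Of 8 liver markers tested, Cyp2e1 alone was called (1.30 ± 0.33, adjusted p = 0.011), at 2327 to 4128 CPM in DRF and 623 to 4184 CPM in NRF. The other 7 had a negative difference and were not called, and the tissue source of Cyp2e1 was not tested. The 4184 CPM was NRF ZT0 replicate 1, without which Cyp2e1 differed by 1.56. Without both libraries Cyp2e1 differed by 1.25 (adjusted p = 0.014). Ahsg, at -0.33 (adjusted p = 0.78) with all libraries, was then called higher (0.50, adjusted p = 0.033).

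The difference at lights-on was then set against the difference at lights-off (ZT12), where other mice, 4 of each regimen, were sampled. The regimen difference itself differed between the times for 5481 of 16065 genes (34.1%), and for 5851 genes without both libraries. Of 3643 genes called at lights-on and tested in this fit, 2761 differed between the times and 2692 of those had the opposite sign at lights-off. For 1470 genes the call was made at both times with opposite sign. Among the called members, this reversal with the test of the difference, which 73.9% of the 3643 genes showed, held for 7 of 8 clock repressors and outputs, 6 of 6 clock activators, 10 of 12 cholesterol genes, 10 of 12 ER chaperones and 15 of 17 ribosome biogenesis genes. It held for 7 of 9 glucocorticoid genes and for 7 of 12 fatty acid oxidation genes. Whether any list differed from all genes in this was not tested.

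Among single genes, Pck1 turned from 2.98 at lights-on to -4.05 ± 0.72 at lights-off (adjusted p = 3.84e-04). Dbp turned to -2.46 ± 0.27 (adjusted p = 2.12e-06), Nr1d2 to -1.33 ± 0.22 (adjusted p = 1.98e-04) and Arntl to 3.23 ± 0.13 (adjusted p = 2.82e-13). For each of these the test between the times passed, with 3.29e-06 as the largest adjusted p, that of Pck1. In size, the difference of Arntl was larger at lights-off than at lights-on, and that of the REV-ERB gene Nr1d2 smaller. A changed sign concerns the difference between the regimens and does not show a rhythm within either of them. The paper reports that Dbp and Nr1d1 lost their rhythm in VAT under DRF. Mvd turned to 2.66 ± 0.42 (adjusted p = 1.38e-04), Dtx4 to 2.04 ± 0.16 (adjusted p = 4.05e-08) and Hspa5 to 0.58 ± 0.11 (adjusted p = 8.57e-04). The difference of Cry1 also changed between the times (adjusted p = 0.0038), to -0.22 ± 0.16 at lights-off (adjusted p = 0.35).

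A smaller set kept its direction. Of the genes called at lights-on, 186 were called with the same sign at lights-off. Hsd11b1 was higher in DRF at lights-off too, by 1.26 ± 0.24 (adjusted p = 6.07e-04), and the times did not differ at the threshold (adjusted p = 0.36). Cfd was lower at both, with -1.58 ± 0.32 at lights-off (adjusted p = 0.0012, adjusted p between the times = 0.47). Serpina3k, at -1.79 ± 0.50 (adjusted p = 0.012), and Serpina3b, at -1.45 ± 0.27 (adjusted p = 5.75e-04), were also lower at both. Tm7sf2, a sterol gene higher in DRF at lights-on, was higher at lights-off as well, by 0.90 ± 0.19 (adjusted p = 0.0014). Red cell genes were not called at lights-off for Alas2 (0.14 ± 0.27, adjusted p = 0.75) or Hba-a1 (0.30 ± 0.30, adjusted p = 0.50). All 5 red cell genes kept their sign at lights-off, and for 1 of the 5 the difference changed between the times at the threshold.

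**Figure D5:**
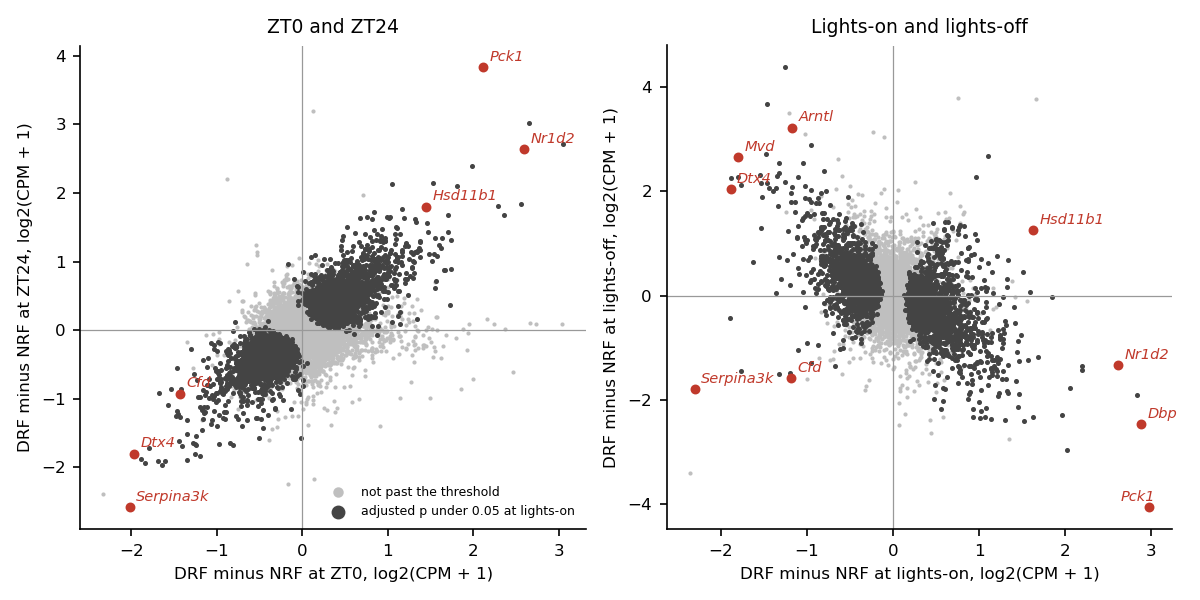
DRF minus NRF differences on the log2(CPM + 1) scale, 1 point per gene, at ZT24 against ZT0 (left) and at lights-off against lights-on (right), with genes called at lights-on in dark and named genes in red. The dark genes were chosen on the average of both axes of the left panel, so that their equal signs there are largely set by that choice, and 65.4% of all genes tested had equal signs. On the right dark points lie mainly in the quadrants of opposite sign, whereas Hsd11b1, Cfd and Serpina3k keep their sign and lie outside them.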

How the data were processed

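RNA-seq libraries were made from poly(A) RNA of VAT, 1 library per mouse. Per the submitters' processing notes, reads were aligned to mm10 with HISAT2 2.0.5 and counted with featureCounts 1.5.0-p3, and strand use is not stated. The authors deposited a table named as TPM, but its values are a score: a log2 of CPM plus 1, divided by exon length and rescaled per library. Exon lengths of GENCODE vM21 undo this, and 99.99% of 1262086 values tested came out as whole reads within 0.02 reads. For 881 genes the length came from the values, 5 abundant genes (Lpl, Fabp4, Car3, mt-Co1, mt-Cytb) could not be tested for whole reads, and 1 of 25939 genes (Scd1) could not be resolved and was left out.

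Genes with a mean log2(CPM + 1) of at least 0.5 were fitted with limma 3.58.1 (trend) in R 4.3.3, with 1 mean per regimen and label. The regimen difference was averaged over ZT0 and ZT24 and called at a Benjamini-Hochberg adjusted p under 0.05 over all genes tested. The lights-off fit added the ZT12 libraries. All p-values given are 2-sided and adjusted unless stated. In simulated data on 16115 genes this lights-on comparison recovered 42 of 50 genes changed 1.5-fold, 49 of 50 changed 2-fold and all 50 at 3-fold and at 4-fold, with 10 other genes called. The simulation gave every gene the same dispersion and held no outlying library. These rates can therefore be too high for genes with a wider spread between mice. Named genes are the 10 largest called rises and falls with the same sign at ZT0 and ZT24 and a mean of at least 1, up to 4 members per list by adjusted p plus any called against the list's majority, and the 5 genes nearest to a change between ZT0 and ZT24. Not every gene so chosen is printed, and some are not reported here. Other genes named (Per2, Tef, Ciart, Npas2, Irs1, Zbtb16, Tsc22d3, Klf9, Cpt1a, Lpl, Fasn, Acaca, Acly, Calr, Canx, Dnajc3, Hsp90b1, Pdia6, Hspb1, Hsp90aa1, Nop58, Adipoq, Lep, Cyp2e1, Alas2, Hba-a1, Cd34, Mrc1, Dnajb11, Lrrn4, Lck, Cox7a1, Hmgcs1, Krt7, Krt8, Krt18, Krt19, Epcam, Muc1 and Alb) were chosen after their values were seen. The same holds for Dio2 and Ahsg. The comparison, the lists and the alternatives were chosen with earlier results of these data known. Alternatives were other library scalings, pseudocounts, filters, voom weights, the deposited values themselves, all 56 libraries in the fit, a replicate block and leaving out single libraries.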

Additional observations from a re-analysis of the deposited data

Results flagged for a closer look

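In groups of 4 mice, a library was flagged where its gap to the nearest mouse took more than 0.829 of the group's range. Of 576 groups of named genes and marker sums tested this way 33 were flagged (5.73%), where chance flags about 1 in 20. The flagged libraries, with the gap as a share of the range, were these.

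DRF ZT0 replicate 4, the library with uterine epithelium markers, was set apart for the sums of those markers (0.920) and of adipose progenitor markers (0.953), and for Pnpla2 (0.951), Lipe (0.829), Mgll (0.906), Lpl (0.921), Acadm (0.928), Sqle (0.901) and Atf5 (0.851). Other DRF mice were set apart for Per3 (0.907, ZT24 replicate 4), Pcx (0.832, ZT24 replicate 3), Rbm3 (0.917, ZT0 replicate 2), Nr4a3 (0.861, ZT24 replicate 2), Hbb-bs (0.872, ZT24 replicate 1) and Cyp1a1 (0.924, ZT24 replicate 1).

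NRF ZT0 replicate 1 was set apart for Srebf2 (0.943), Rpe (0.844), Osgin1 (0.836), Hsp90b1 (0.883) and the sum of exocrine pancreas markers (0.858). NRF ZT24 replicate 1 was set apart for Hspa5 (0.964), Dnaja1 (0.843), Calr (0.870), Slc3a2 (0.904) and Stard4 (0.845), and NRF ZT24 replicate 4 for Fkbp5 (0.884) and the sum of skeletal muscle markers (0.940). NRF ZT0 replicate 3 was set apart for Vldlr (0.926), Acot2 (0.911) and H2afj (0.910), NRF ZT0 replicate 4 for the endothelium sum (0.878), and NRF ZT24 replicate 2 for Pnpla2 (0.866) and Wipi1 (0.893).

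The regimen difference also differed between lights-on and lights-off for 5481 genes by the limma test of that difference.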

How the results depend on the processing

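The lights-on count of 3655 genes stayed within 1.5 times under each alternative run, from 2947 to 4780 without 1 library, and was 3884 with the replicate block. The labels do not say whether the replicate numbers pair mice of different groups. Same-numbered mice of different groups correlated at -0.18 to 0.45 (24 pairs, median 0.07). Other pairs correlated at -0.35 to 0.27 (72 pairs, median 0.01). Whether the numbers stand for a pairing was not tested. With all 56 libraries in the fit, 2888 genes were called at ZT0, 3227 at ZT24 and 8 for a change between them. The ZT0 count ran from 591 to 1907, the ZT24 count from 772 to 2754 and the count of changes between them from 0 to 1 without 1 library, and the lights-on against lights-off count from 4737 to 6106. On the deposited values, 877 genes were called at ZT24, and the median difference over all genes was -0.41 in the units of the table, against -0.01 for log2(CPM + 1), so differences there are relative to that shift. Scaling to total reads moved that median to -0.04. Of 111 named genes called, 100 passed in each of the 16 fits without 1 library and 107 without both libraries apart from their group, and 90 passed under every alternative run. On the deposited values 15 lost the call, among them Mgll, Sel1l, Tm7sf2, Tpi1, Pygb, Rbm3, Ulk2 and Atg12, which passed without any 1 library, while Cfd lost it with no filter and Pnpla3 with all 56 libraries, and Sel1l and Cpt1a lost it with total reads. None reversed under the alternatives run. Among lists, the count of higher genes was 6 for fatty acid oxidation, 3 for insulin and FOXO genes and 2 for autophagy on the deposited values, and 4 for autophagy and 4 for insulin and FOXO genes with total reads. Higher calls over all genes also fell on the deposited values, to 1161, with 2012 lower. The causes were not tested. The depth leaves genes near 1 CPM, such as Ciart, with small counts.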
